A study of Mus musculus with 9 samples.

Results

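Peroxisome biogenesis and lipid oxidation genes were examined as a list of 44 genes, selected by gene name among the 54532 genes of an RNA-seq experiment on the mouse macrophage line RAW264.7. The list held 12 biogenesis genes, the peroxins or Pex genes, and 32 genes for enzymes and transporters of peroxisomal lipid metabolism, and these classes were taken apart. All cells were labeled as wild type (WT) macrophages with ascites as the tissue of origin. The 3 groups of 3 libraries each consisted of a control left without treatment, a group exposed to LPS (1 μg/ml) over 6 h, and a group exposed to LPS at that dose plus G-CDs (400 μg/ml) over 6 h. LPS is the bacterial outer membrane component that activates macrophages, and G-CDs are carbon dots prepared from the medicinal plant Glycyrrhiza. The titles of the last group name G-CDs, whereas their treatment label gives LPS alone, so the presence of LPS and G-CDs together follows the description of the study. No group received G-CDs without LPS, so the comparisons concern the change under LPS and the change when G-CDs were added to it.

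Peroxisomes are organelles that shorten very long-chain and branched fatty acids by beta-oxidation and alpha-oxidation, make the first intermediates of ether lipids and break down the hydrogen peroxide that their oxidases release. Their proteins are made in the cytosol, and the peroxins insert the membrane proteins, carry matrix proteins across the membrane and recycle the import receptors. In macrophages, fatty acid oxidation is reduced in classical activation by LPS and serves alternative activation.

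The deposited values were FPKM, which are reads per gene scaled to gene length and library size. The library size behind them was 1.11 to 1.14 times the reads on genes in control, 0.929 to 0.936 times in LPS and 0.88 to 0.98 times in LPS + G-CDs, which raises both treated groups relative to control in comparison with scaling by reads on genes. In all, 14752400 to 17312255 reads were assigned to genes in each library. All 8 of 8 macrophage markers passed the limit for testing, whereas 0 of 12 markers of other cell types did, with no library above an FPKM of 0.861 for the highest of these, Pecam1. LPS raised 8 of 8 LPS response genes, and of the macrophage markers 4 were higher and 2 lower under LPS, where 15.8% of all tested genes rose and 15.6% fell. Some LPS response genes, such as Il6 and Il1b with means of 0 and 0.0103 in control, passed the limit through treated libraries alone. Their rise was therefore bound to appear. Adding G-CDs to LPS raised 3 of 4 tested targets of the antioxidant regulator Nrf2 and lowered none, where 0.25% of all tested genes rose and 0.242% fell. Nqo1, also listed as a target, was too low to be tested. These reference lists were chosen with earlier results of these data known. The LPS libraries resembled one another most (r of 0.987 to 0.988 across genes), while r lay between 0.94 and 0.969 among control libraries and between 0.935 and 0.975 among LPS + G-CDs libraries. Long genes also shifted within groups, and the longest 10% of genes deviated from the group mean by 0.33 on the log2 scale in LPS + G-CDs replicate 1, by -0.31 in LPS + G-CDs replicate 3 and by -0.27 in control replicate 3. Whether the sequenced replicates were separate cultures is not made clear in the sources used here, so p-values measure the spread between these libraries, which may be technical.

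At the level of single genes, members ranged from barely detected to abundant. Per unit length, the members with the highest mean FPKM over all libraries were Acsl5, which activates long-chain fatty acids to acyl-CoA, Acsl4, which prefers arachidonic acid, and Acaa1a, the peroxisomal 3-ketoacyl-CoA thiolase. Their order differed between groups, with Acaa1a highest in control (66.4) and Acsl4 highest in LPS (57.6). In control cells the median member had an FPKM of 6.65, and 16 of 44 members reached 10. Hacl1 (the lyase of alpha-oxidation), Nudt7 (a CoA diphosphatase) and Pxmp2 (a membrane channel protein) stayed under an FPKM of 1 in too many libraries to be tested. Group means were 0.117 ± 0.0387 in control, 0.0381 ± 0.0152 in LPS and 0.0721 ± 0.0673 in LPS + G-CDs for Hacl1. For Nudt7 they were 0.563 ± 0.0694 in control, 0.444 ± 0.106 in LPS and 1.12 ± 0.655 in LPS + G-CDs, and replicate 3 alone reached 1.86 in the last group. Pxmp2 was at 0.749 ± 0.332 in control, 0.278 ± 0.128 in LPS and 0.420 ± 0.214 in LPS + G-CDs. Counts of changed members from here on cover the 41 that passed the filter, except in alternative settings with another filter. The filter asked for 3 or more libraries with an FPKM of 1 or higher, and all 12 biogenesis genes passed. Promoters and coordinates were counted over all 44 members. Acox3 passed it through its control libraries alone, so that it was bound to be higher there, and the counts of falls from control include it.

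LPS lowered a set of lipid oxidation enzymes, while peroxins fell at a share near that of all tested genes. The difference between the classes was not tested. Relative to control, 13 of 41 members fell and 2 rose at a Benjamini-Hochberg adjusted p under 0.05 in limma, fitted to log2(FPKM + 1) of all 11585 tested genes, among which 15.6% fell and 15.8% rose. The falls comprised 11 of 29 enzyme or transporter genes and 2 of 12 biogenesis genes. The median log2 fold change was -0.32 for the enzyme or transporter genes and 0.05 for the biogenesis genes, against 0.02 over all tested genes. The biogenesis median turned negative under TPM, which rescales each library to the same FPKM sum (-0.198), with the reads on genes as library size (-0.177) and without control replicate 2 (-0.0418), while the median of all tested genes was -0.232, -0.204 and 0.0154 in these settings. Relative to all genes it remained slightly higher under both scalings, whereas that of the enzyme or transporter genes was -0.619 under TPM and -0.509 with the reads on genes. In 17 members every LPS library lay below every control library (25.1% of all tested genes did so), and in 5 members above (27.4%). In libraries of whole cultures, fewer cells expressing a gene and less RNA per cell cannot be told apart.

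**Figure D1:**
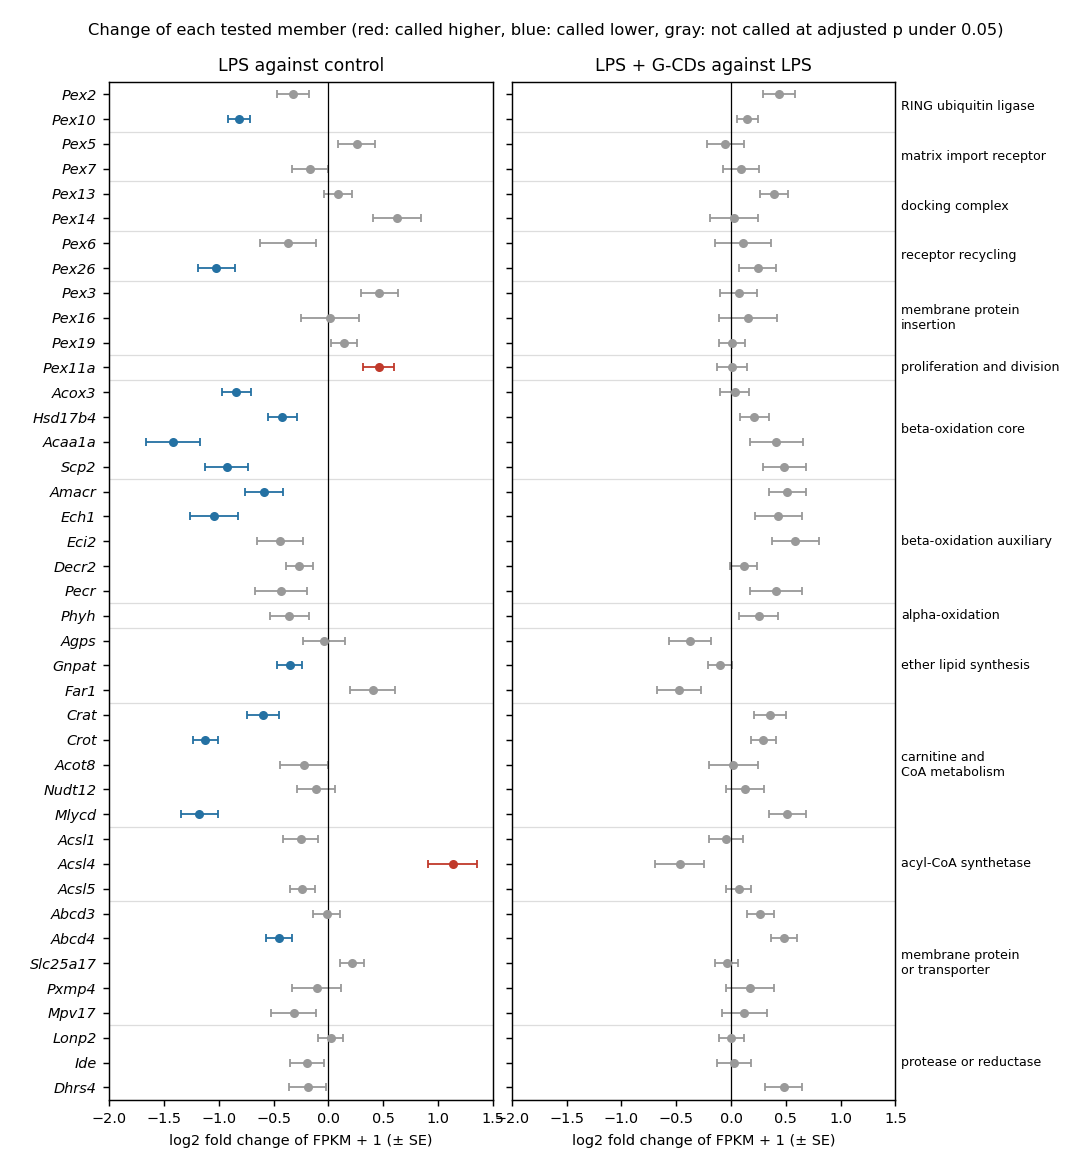
Log2 fold change of FPKM + 1 (horizontal axis, with SE) of each of the 41 tested members in LPS against control (left) and LPS + G-CDs against LPS (right), grouped by role. On the left 13 members are marked as lower and 2 as higher, led by Acaa1a (-1.42) and Acsl4 (1.14), and on the right 34 of 41 points lie above 0 with none called.

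Of the 4 core beta-oxidation genes, Acaa1a, Scp2 and Hsd17b4 were called lower under LPS, as was Acox3, which entered the test through control alone. Acaa1a (chr9:119339676-119350299 in GRCm38, plus strand), which catalyzes the last, thiolytic step, had FPKM values of 83.7, 50.1 and 65.5 in control, 23.8, 21.9 and 25.6 in LPS and 23.4, 31.4 and 44.0 in LPS + G-CDs. All LPS libraries lay far below all control libraries, and the LPS + G-CDs libraries began at the LPS level and spread upward without reaching control. The fall was log2 fold change -1.42 ± 0.25 (SE), adjusted p = 0.00234 in limma. Of the 50-base words in its longest transcript, 16.2% also occur in other genes, chiefly its paralog Acaa1b, so that the reads of this pair may be split uncertainly.

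Scp2 (chr4:108043839-108144998, minus strand) encodes the sterol carrier protein X thiolase, which acts on branched chains. Its FPKM values were 27.4, 21.5 and 28.6 in control, 13.2, 12.7 and 13.2 in LPS and 13.8, 19.1 and 24.6 in LPS + G-CDs. The LPS libraries sat close together below every control library, and the LPS + G-CDs libraries were all above them, the highest inside the control range. LPS lowered Scp2 (log2 fold change -0.93 ± 0.20 (SE), adjusted p = 0.00697, limma), although 41.4% of its words occur in other genes, among them the pseudogene Scp2-ps2. Acox3 (chr5:35583040-35615352, plus strand), the oxidase of branched acyl-CoA, was low throughout at 1.65, 1.65 and 1.27 in control, 0.477, 0.402 and 0.346 in LPS and 0.534, 0.350 and 0.445 in LPS + G-CDs. Both LPS-treated groups lay below control and overlapped each other. Its mean fell to 0.268 of the control mean (log2 fold change -0.84 ± 0.13 (SE), adjusted p = 0.00147, limma), and the log2(FPKM + 1) scale understates such changes in low genes. The call was the same with no filter on low values. Hsd17b4, the bifunctional hydratase and dehydrogenase of the pathway, went from 18.7 ± 2.76 to 13.7 ± 1.26 (log2 fold change -0.42 ± 0.13 (SE), adjusted p = 0.0373, limma) and lost its call in 6 of 20 alternative settings. It stood at 16.0 ± 0.961 in LPS + G-CDs.

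Auxiliary enzymes prepare fatty acids with double bonds or methyl branches for the same cycle, and 2 of 5 fell, against 15.6% of all tested genes. Ech1 (chr7:28825217-28832247, plus strand), a dienoyl-CoA isomerase found in peroxisomes and mitochondria, had FPKM values of 12.9, 16.0 and 23.1 in control, 7.86, 7.04 and 8.13 in LPS and 9.02, 9.83 and 13.7 in LPS + G-CDs. LPS libraries were below all others, and the LPS + G-CDs libraries overlapped the lower end of control. The fall under LPS was log2 fold change -1.04 ± 0.22 (SE), adjusted p = 0.00597 in limma. Amacr (chr15:10981756-10996626, plus strand), the racemase that lets branched chains enter beta-oxidation, went from 3.01, 2.86 and 2.24 in control to 1.42, 1.67 and 1.29 in LPS and stood at 1.83, 3.26 and 2.57 in LPS + G-CDs. Every LPS library was below every library of the other groups, which overlapped each other. Its fall (log2 fold change -0.59 ± 0.17 (SE), adjusted p = 0.0286, limma) was no longer called in 7 of 19 alternative settings. The enoyl-CoA isomerase Eci2 and the reductases Decr2 and Pecr were not called, although all 3 were called lower under TPM and with the reads on genes as library size, Pecr also with the replicate block and Eci2 also without control replicate 1. Means were 4.67 ± 1.43 in control, 3.08 ± 0.0587 in LPS and 5.22 ± 1.31 in LPS + G-CDs for Eci2. Decr2 had means of 3.60 ± 0.137 in control, 2.84 ± 0.329 in LPS and 3.16 ± 0.401 in LPS + G-CDs. The corresponding values for Pecr were 6.17 ± 1.71 in control, 4.27 ± 0.838 in LPS and 6.13 ± 2.11 in LPS + G-CDs.

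Among genes that hand acyl groups to carnitine or remove CoA, 3 of 5 fell, against 15.6% of all tested genes. Mlycd (chr8:119394878-119411102, plus strand), malonyl-CoA decarboxylase, removes the inhibitor of mitochondrial fatty acid uptake, and its FPKM values were 6.95, 4.08 and 5.83 in control, 1.78, 2.22 and 1.67 in LPS and 3.01, 3.14 and 3.19 in LPS + G-CDs. The 3 groups did not overlap, with LPS lowest and LPS + G-CDs between LPS and control. The change under LPS was log2 fold change -1.18 ± 0.17 (SE), adjusted p = 0.000811 in limma. Crot (chr5:8966033-8997324, minus strand), carnitine octanoyltransferase, which exports shortened acyl groups from peroxisomes, was ordered the same way at 2.98, 2.51 and 2.55 in control, 0.716, 0.690 and 0.656 in LPS and 1.08, 1.10 and 1.03 in LPS + G-CDs. Replicates of Crot within each treated group differed very little, and its mean under LPS was 0.256 of the control mean (log2 fold change -1.12 ± 0.11 (SE), adjusted p = 0.000106, limma). Crat, carnitine acetyltransferase, fell from 3.58 ± 0.650 to 2.01 ± 0.201 (log2 fold change -0.60 ± 0.15 (SE), adjusted p = 0.0133, limma). In LPS + G-CDs Crat stood at 2.86 ± 0.428, with every library above LPS. Exons of Crot and Crat overlap those of neighboring genes over 3.76% and 8.72% of their bases, and whether strand was kept in counting is not given in the sources used here. The thioesterase Acot8 was not called, with means of 7.13 ± 1.37 in control, 6.04 ± 1.63 in LPS and 6.11 ± 1.39 in LPS + G-CDs. Nudt12, a NADH diphosphatase, was not called either and had means of 1.42 ± 0.371 in control, 1.22 ± 0.243 in LPS and 1.43 ± 0.347 in LPS + G-CDs.

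Acsl4 was the only enzyme gene called higher. Acsl4 (chrX:142317993-142390535, minus strand), the ligase that supplies arachidonoyl-CoA for membrane lipids, had FPKM values of 33.4, 27.2 and 18.5 in control, 57.6, 59.5 and 55.6 in LPS and 49.6, 43.7 and 32.5 in LPS + G-CDs. All LPS libraries exceeded all others, and the lowest LPS + G-CDs library fell inside the control range. The rise under LPS was log2 fold change 1.14 ± 0.22 (SE), adjusted p = 0.00457 in limma, and TPM scaling alone of 20 alternative settings ended the call. The other ligases were not called, although Acsl5 was called lower under TPM and with the reads on genes as library size. Acsl1 was called lower with the gene-length trend removed. Acsl1 had means of 4.88 ± 0.453 in control, 3.93 ± 0.291 in LPS and 3.82 ± 0.931 in LPS + G-CDs, and Acsl5 had means of 47.9 ± 2.32 in control, 40.5 ± 0.931 in LPS and 42.8 ± 4.56 in LPS + G-CDs.

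**Figure D2:**
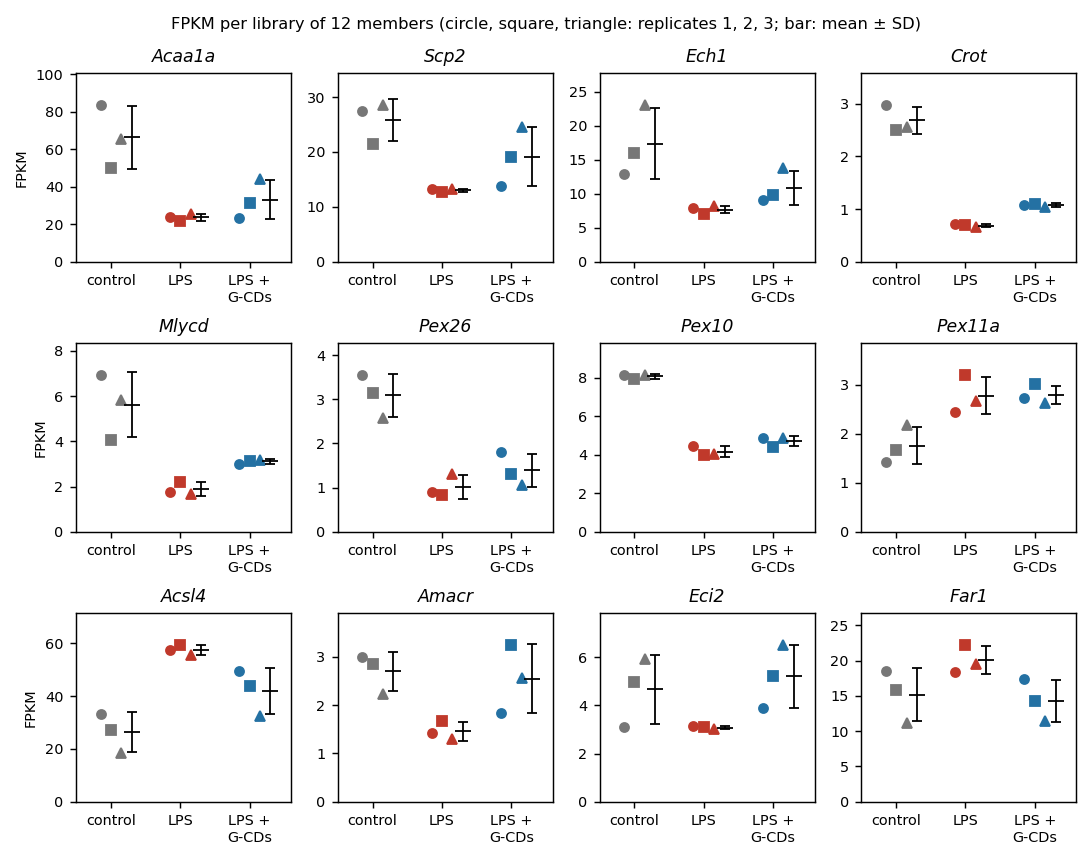
FPKM (vertical axis, starting at 0) of 12 members in the 9 libraries, with 1 marker per library and the mean ± SD of each group beside them. LPS values lie below control for Acaa1a, Scp2, Ech1, Crot, Mlycd, Pex26, Pex10 and Amacr and above it for Pex11a and Acsl4, while Mlycd and Crot alone among these show 3 groups without overlap.

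Sequence upstream of the start site is shown for genes at both ends of this response, namely the 3 largest falls and the largest rise whose window was free of annotated exons of the gene over at least 100 bases. Promoters were taken from RefSeq (GRCm38.p6), where 36 of 44 members had 43 promoters, and the 250 bases before each start were searched on both strands. The stretches are chr9:119341160-119341293 for Acaa1a, chr8:119394644-119394877 for Mlycd and chr7:28825088-28825216 for Ech1, all on the plus strand, and chrX:142390536-142390785 on the minus strand for Acsl4. The RefSeq starts of Acaa1a, Mlycd and Ech1 lie within the deposited spans of these genes, and the stretches of Mlycd and Ech1 end short of the start, since annotated exons follow. Capitals mark the CCAAT box (CCAAT) and the GC box (GGGCGG) in either orientation.
Acaa1a: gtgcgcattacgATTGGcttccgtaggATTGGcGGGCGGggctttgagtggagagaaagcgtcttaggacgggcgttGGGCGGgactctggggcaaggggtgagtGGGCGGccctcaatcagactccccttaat
Mlycd: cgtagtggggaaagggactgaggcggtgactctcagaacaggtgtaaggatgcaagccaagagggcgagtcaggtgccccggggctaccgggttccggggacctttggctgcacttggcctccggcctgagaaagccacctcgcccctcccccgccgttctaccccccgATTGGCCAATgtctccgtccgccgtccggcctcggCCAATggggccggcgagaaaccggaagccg
Ech1: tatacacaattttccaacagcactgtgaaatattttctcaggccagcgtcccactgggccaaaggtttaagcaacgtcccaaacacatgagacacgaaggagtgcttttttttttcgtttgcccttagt
Acsl4: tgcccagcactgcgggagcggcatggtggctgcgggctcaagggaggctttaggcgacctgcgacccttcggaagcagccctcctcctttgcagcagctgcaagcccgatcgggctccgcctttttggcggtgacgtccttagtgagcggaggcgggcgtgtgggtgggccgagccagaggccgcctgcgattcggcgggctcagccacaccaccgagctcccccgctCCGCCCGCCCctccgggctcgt
In the printed stretches Acaa1a carried 2 CCAAT boxes and 3 GC boxes, Mlycd carried 3 CCAAT boxes and Acsl4 carried 2 overlapping GC boxes. Over the whole 250 bases Acaa1a held 3 CCAAT boxes, and Ech1 held 2 GC boxes, which lie outside its printed stretch. GC boxes occurred in 62.8% of member promoters, in 58.7% of promoters of tested genes and in 32.7% of all 32851 promoters. CCAAT boxes occurred in 41.9% of member promoters, in 35.6% of promoters of tested genes and in 33.8% of all. The core of the antioxidant response element (TGACNNNGC) was found in 1 member promoter, that of Pex7, in 11.8% of promoters of tested genes and in 10.2% of all promoters. The direct repeat bound by PPAR factors (AGGTCANAGGTCA) was found in 0 of 43 member promoters, in 0.0196% of promoters of tested genes and in 0.0335% of all. These matches describe the letters in the windows and do not show binding.

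Of the biogenesis genes 1 of 12 was called higher and 2 of 12 lower under LPS, where 15.8% and 15.6% of all tested genes were. Pex26 (chr6:121183667-121198837, plus strand), the membrane anchor of the complex that pulls import receptors back out of the membrane, had FPKM values of 3.56, 3.13 and 2.57 in control, 0.894, 0.831 and 1.31 in LPS and 1.81, 1.30 and 1.06 in LPS + G-CDs. Both LPS-treated groups lay below all control libraries and overlapped each other. Its mean under LPS was 0.328 of control (log2 fold change -1.02 ± 0.17 (SE), adjusted p = 0.0018, limma). Its partner Pex6, an ATPase of that complex, was not called, with means of 18.9 ± 7.32 in control, 13.8 ± 1.02 in LPS and 15.3 ± 4.09 in LPS + G-CDs.

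Pex10 (chr4:155067016-155072433, plus strand), a RING ubiquitin ligase that marks the import receptor for recycling, had FPKM values of 8.15, 7.91 and 8.16 in control, 4.48, 3.98 and 4.03 in LPS and 4.89, 4.42 and 4.86 in LPS + G-CDs. Spread within the groups was small, control stood apart, and the treated groups overlapped. The fall under LPS was log2 fold change -0.82 ± 0.10 (SE), adjusted p = 0.000309 in limma. Pex2, a ligase of the same complex, was not called under LPS and had means of 21.1 ± 3.23 in control, 16.5 ± 1.09 in LPS and 22.9 ± 3.38 in LPS + G-CDs. Under TPM and with the reads on genes as library size, Pex2 was called lower. Pex11a (chr7:79735957-79743131, minus strand), which promotes peroxisome elongation and division, had FPKM values of 1.42, 1.68 and 2.17 in control, 2.46, 3.21 and 2.68 in LPS and 2.74, 3.01 and 2.64 in LPS + G-CDs. Both treated groups lay above control by narrow margins. Pex11a was called higher under LPS (log2 fold change 0.46 ± 0.14 (SE), adjusted p = 0.0342, limma), and 10 of 19 alternative settings did not keep this call.

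None of the remaining peroxins was called under LPS. Pex14, a docking protein of the import pore, was at 3.58 ± 1.35 in control, 5.89 ± 0.452 in LPS and 6.11 ± 1.48 in LPS + G-CDs, and all LPS libraries were above control (adjusted p = 0.0587, limma), with 28.3% of its exon bases shared with an overlapping gene. Pex3, the docking receptor for membrane protein insertion, had means of 2.92 ± 0.839 in control, 4.32 ± 0.364 in LPS and 4.59 ± 0.428 in LPS + G-CDs, also without overlap between LPS and control (adjusted p = 0.0661, limma). Both were elevated in every LPS library without passing the test in the main fit. With the replicate block both were called higher, as was Pex14 with voom and Pex3 with the gene-length trend removed. The import receptors Pex5 and Pex7 overlapped between groups. Means of Pex5 were 16.9 ± 4.57 in control, 19.9 ± 0.721 in LPS and 19.2 ± 0.810 in LPS + G-CDs. Those of Pex7 were 1.40 ± 0.291 in control, 1.13 ± 0.138 in LPS and 1.28 ± 0.387 in LPS + G-CDs. Pex13, the other docking protein, had means of 4.43 ± 0.364 in control, 4.78 ± 0.576 in LPS and 6.57 ± 0.812 in LPS + G-CDs. Insertion factors Pex16 and Pex19 were near their control levels. Pex16 was at 7.28 ± 1.60 in control, 7.24 ± 0.428 in LPS and 8.65 ± 3.69 in LPS + G-CDs. Pex19 was at 12.7 ± 1.24 in control, 14.1 ± 0.330 in LPS and 14.3 ± 1.68 in LPS + G-CDs.

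In the other roles Gnpat and Abcd4 were called lower under LPS, where 15.6% of all tested genes fell. Gnpat, which starts ether lipid synthesis, fell slightly (log2 fold change -0.35 ± 0.11 (SE), adjusted p = 0.0383, limma). Its means were 12.8 ± 0.496 in control, 9.84 ± 0.829 in LPS and 9.11 ± 0.833 in LPS + G-CDs, with 10.3% of its exon bases shared with overlapping genes, and the call was lost in 9 of 20 alternative settings. Agps and Far1, which carry the next step and supply the fatty alcohol, were not called. The half-transporter Abcd4, which handles cobalamin in lysosomes, fell (log2 fold change -0.45 ± 0.12 (SE), adjusted p = 0.021, limma) from 7.22 ± 0.580 to 5.03 ± 0.488, and the call was lost in 3 of 20 alternative settings, namely without control replicate 3, LPS replicate 2 or LPS replicate 3. Abcd3, the transporter of branched and dicarboxylic acyl groups, was at 8.19 ± 0.774 in control, 8.07 ± 0.110 in LPS and 9.961 ± 1.41 in LPS + G-CDs and was not called. The cofactor carrier Slc25a17 had means of 12.5 ± 1.32 in control, 14.6 ± 0.350 in LPS and 14.2 ± 0.643 in LPS + G-CDs. Its LPS libraries were all above control without a call. Membrane proteins Pxmp4 and Mpv17 overlapped between all groups. Pxmp4 means were 1.33 ± 0.578 in control, 1.12 ± 0.246 in LPS and 1.40 ± 0.425 in LPS + G-CDs. Mpv17 means were 3.03 ± 1.23 in control, 2.14 ± 0.0952 in LPS and 2.42 ± 0.322 in LPS + G-CDs, with 25.4% of its words found in other genes. Phyh, the hydroxylase of alpha-oxidation, was not called at 17.4 ± 3.70 in control, 13.3 ± 1.25 in LPS and 16.1 ± 2.94 in LPS + G-CDs. Under TPM and with the reads on genes as library size, Phyh was called lower. The protease Lonp2 scarcely differed between groups, with means of 4.66 ± 0.567 in control, 4.72 ± 0.145 in LPS and 4.73 ± 0.353 in LPS + G-CDs. Ide, the insulin-degrading protease, had means of 32.6 ± 4.75 in control, 28.2 ± 0.838 in LPS and 29.0 ± 5.19 in LPS + G-CDs. Dhrs4, a carbonyl reductase, had means of 7.26 ± 1.07 in control, 6.24 ± 1.01 in LPS and 9.15 ± 1.85 in LPS + G-CDs.

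Scaling and the replicate block changed how many members were called in LPS against control. When each library was rescaled to TPM, the median of all tested genes moved from 0.02 to -0.23 and that of the members from -0.25 to -0.54, with 0 members called higher and 20 lower. With the reads on genes as library size, a setting chosen after the data were seen, the median of all tested genes was -0.20 and that of the members -0.47, with 1 member called higher and 19 lower. Over all tested genes 1827 were called higher and 1803 lower with the deposited scaling, 1003 and 3059 with TPM, and 1146 and 3133 with the reads on genes. With the replicate number as a block, 4 members were called higher, Pex14 and Pex3 now included, and 14 lower, Pecr now included. Leaving out LPS replicate 3 reduced the members called lower to 8, and leaving out LPS replicate 1, LPS replicate 2, LPS replicate 3 or LPS + G-CDs replicate 2 reduced those called higher to 1. Acaa1a, Mlycd, Crot, Ech1, Pex26, Scp2, Acox3 and Pex10 were called lower in every alternative setting in which they were tested.

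Addition of G-CDs to LPS produced no called change in any member. Relative to LPS, 0 of 41 members rose and 0 fell at an adjusted p under 0.05 in limma, where 0.25% of all tested genes rose and 0.242% fell, and voom on recovered reads also called 0. At an unadjusted p under 0.01 with a change over 1.5-fold, 0 members were higher and 0 lower, against 1.24% of all tested genes in each direction. Unadjusted p-values under 0.05 were found for 11 of 41 members, against 15.2% of all tested genes. Differences were small and mostly positive, with 34 members above 0 and 7 below, and the median was 0.12 against 0.02 for all tested genes. In 12 members the LPS + G-CDs range was entirely higher than the LPS range (12.9% of all tested genes) and in 3 it was entirely lower (15%). The tally of signs depended on scaling and on single libraries, since 22 members were above 0 under TPM, where the members' median was 0.0015 and that of all tested genes -0.14, and 28 were above 0 without LPS + G-CDs replicate 3. The biogenesis median was 0.10, and -0.0365 under TPM, above that of all tested genes in both.

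The 4 members with the largest positive differences, Eci2, Mlycd, Amacr and Scp2, were followed by Abcd4, Dhrs4 and Pex2, and none was called. Eci2 (chr13:34977748-35027096, minus strand) had FPKM values of 3.11, 4.99 and 5.91 in control, 3.13, 3.09 and 3.02 in LPS and 3.91, 5.23 and 6.53 in LPS + G-CDs. The LPS libraries were nearly equal, the LPS + G-CDs libraries all exceeded them, and control overlapped both. Its difference from LPS was log2 fold change 0.59 ± 0.21 (SE), adjusted p = 0.298, and 15.8% of its words occur in other genes. For Mlycd, where the LPS + G-CDs values given above were all higher than in LPS, the difference was log2 fold change 0.51 ± 0.17 (SE), adjusted p = 0.272. Amacr differed by 0.51 ± 0.17 (SE), with adjusted p = 0.273, and Scp2 by 0.49 ± 0.20 (SE), with adjusted p = 0.319. Abcd4, named after its values were seen, had the smallest p of all members. Abcd4 had FPKM values of 7.22, 6.65 and 7.81 in control, 5.35, 4.47 and 5.28 in LPS and 6.89, 7.05 and 8.35 in LPS + G-CDs, with LPS below both other groups and a difference of log2 fold change 0.48 ± 0.12 (SE), adjusted p = 0.171.

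The 4 largest negative differences were those of Far1, Acsl4, Agps and Gnpat, likewise without a call. Far1 (chr7:113513834-113571511, plus strand), the fatty acyl-CoA reductase of ether lipid synthesis, had FPKM values of 18.5, 15.9 and 11.2 in control, 18.4, 22.3 and 19.6 in LPS and 17.3, 14.3 and 11.4 in LPS + G-CDs. LPS + G-CDs libraries were all below LPS and inside the control range (log2 fold change -0.47 ± 0.20 (SE), adjusted p = 0.322, limma). Agps (chr2:75832177-75931350, plus strand), the alkylglycerone phosphate synthase, stood at 17.6, 16.9 and 11.1 in control, 14.1, 14.7 and 14.7 in LPS and 13.1, 11.3 and 8.86 in LPS + G-CDs. Its LPS + G-CDs libraries lay below LPS and overlapped control (log2 fold change -0.37 ± 0.19 (SE), adjusted p = 0.338, limma). Acsl4 differed from LPS by -0.47 ± 0.22 (SE), with adjusted p = 0.327. Gnpat (chr8:124863033-124890057, plus strand), at 13.0, 12.3 and 13.2 in control, 9.48, 10.8 and 9.24 in LPS and 8.97, 10 and 8.35 in LPS + G-CDs, had a treated range that overlapped between LPS and LPS + G-CDs (log2 fold change -0.10 ± 0.11 (SE), adjusted p = 0.584, limma).

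Long genes shifted between the LPS + G-CDs libraries, and the long members did so unequally. The median length of tested members was 3943 bases, and the 6 longest had 8006 to 12092. In Acsl1, Agps and Far1 the 3 LPS + G-CDs libraries were ordered as the long genes of those libraries were, in Pex7 and Abcd4 the order was opposite, and in Acox3 replicates 2 and 3 changed places. Once the length trend was removed from each library, the difference was -0.29 for Far1, -0.14 for Agps, -0.41 for Acsl4, 0.65 for Eci2, 0.67 for Abcd4 and 0.40 for Pex7. The part of gene length in these differences was not tested. LPS + G-CDs replicate 1, where long genes were highest, also lay nearest to LPS for Scp2, Amacr and Eci2. Without it, these 3 were past an unadjusted p of 0.01 and 1.5-fold, with adjusted p-values of 0.0549 for Scp2, 0.0554 for Amacr and 0.067 for Eci2 in limma.

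**Figure D3:**
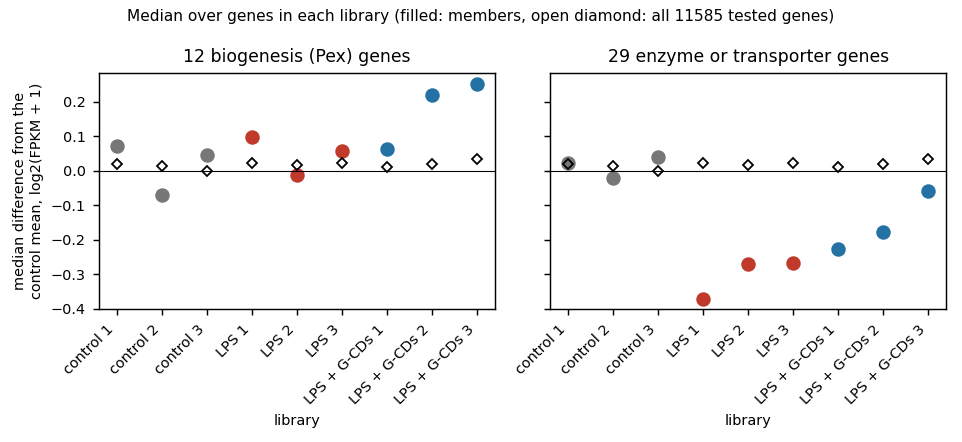
Median difference from the control mean on the log2(FPKM + 1) scale (vertical axis) for each of the 9 libraries, for biogenesis genes (left) and enzyme or transporter genes (right), with open diamonds for all tested genes. Enzyme or transporter medians lie between -0.371 and -0.267 in LPS and between -0.227 and -0.0605 in LPS + G-CDs, while biogenesis medians lie between -0.0124 and 0.0973 in LPS and between 0.0637 and 0.251 in LPS + G-CDs.

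Against control, the cells given LPS and G-CDs had few called members, at shares near those of all genes for falls and below them for rises. In this comparison, which shares its control libraries with the first, 7 of 41 members fell and 3 rose, where 12.4% of all tested genes fell and 12.8% rose. The falls were 5 enzyme genes, namely Acaa1a (log2 fold change -1.004 ± 0.25 (SE), adjusted p = 0.0163), Crot (-0.83 ± 0.11, adjusted p = 0.000798), Acox3 (-0.80 ± 0.13, adjusted p = 0.00224), Mlycd (-0.66 ± 0.17, adjusted p = 0.0198) and Gnpat (-0.45 ± 0.11, adjusted p = 0.016), and the peroxins Pex26 and Pex10, all in limma. The call of Mlycd was lost in 5 of 19 alternative settings and that of Acaa1a in 3 of 20. Pex26 changed by -0.78 ± 0.17 (SE), with adjusted p = 0.00888. Pex10 changed by -0.67 ± 0.10 (SE), with adjusted p = 0.00121. The medians were 0.16 for biogenesis genes and -0.16 for enzyme or transporter genes, against 0.02 for all tested genes, and the former turned to -0.255 under TPM and to -0.0725 with the reads on genes as library size, where the median of all tested genes was -0.376 and -0.184.

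All 3 rises were peroxins. Pex13 (chr11:23646479-23665959, minus strand), which forms the import pore with Pex14, had FPKM values of 4.01, 4.62 and 4.66 in control, 4.95, 4.13 and 5.24 in LPS and 5.64, 6.93 and 7.14 in LPS + G-CDs. LPS + G-CDs libraries stood above both other groups (log2 fold change 0.48 ± 0.13 (SE), adjusted p = 0.026 against control, limma). Pex3 (chr10:13523842-13553142, minus strand) had FPKM values of 1.96, 3.52 and 3.27 in control, 3.94, 4.66 and 4.37 in LPS and 4.29, 5.08 and 4.40 in LPS + G-CDs. Both treated groups lay above control and overlapped (log2 fold change 0.54 ± 0.17 (SE), adjusted p = 0.047 against control, limma), and 5.25% of its exon bases are shared with Adat2. Pex11a changed by 0.47 ± 0.14 (SE), with adjusted p = 0.0376. Leaving out LPS + G-CDs replicate 2 or LPS + G-CDs replicate 3 kept none of these calls, and leaving out control replicate 2 kept Pex3 alone. Leaving out any LPS library kept Pex13 alone, although LPS libraries do not enter these differences and act only through the shared estimate of spread. The median SD was 0.0867 in LPS, against 0.244 in control and 0.259 in LPS + G-CDs. The p-values of this comparison may therefore be too small. With its 6 libraries alone, 0 members were called higher and 4 lower. The call was lost in 13 of 19 alternative settings for Pex3, in 12 of 19 for Pex11a and in 7 of 20 for Pex13. With the replicate block 5 members were called higher and 8 lower, under TPM 0 were called higher and 15 lower, where the median of all tested genes was -0.38, and with the reads on genes as library size 0 and 12, where it was -0.18.

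Other genes of the pathway were described from lists written by role. Of 48 other peroxisome genes 31 were tested, and LPS lowered 12 and raised 4, where 15.6% of all tested genes fell and 15.8% rose, with a median log2 fold change of -0.47. The largest changes in this list on the log2(FPKM + 1) scale were the rise of Nos2, the inducible nitric oxide synthase (log2 fold change 5.73 ± 0.18 (SE), adjusted p = 6.82e-08), that of the oxidase Hao1 (log2 fold change 2.23 ± 0.14 (SE), adjusted p = 6.32e-06) and that of the peroxiredoxin Prdx5 (log2 fold change 1.97 ± 0.31 (SE), adjusted p = 0.00142). The deubiquitinase Usp2, named after its values were seen, fell by nearly as much on this scale (log2 fold change -1.96 ± 0.11 (SE), adjusted p = 2.61e-06), from 6.17 ± 0.470 to 0.838 ± 0.0359 FPKM. Hao1 passed the filter through the treated libraries alone, and Usp2 and Paox through control alone, so that each was bound to be higher in those groups. The counts of falls from control in this list include Usp2 and Paox. When G-CDs were added to LPS, Prdx1 rose (log2 fold change 1.81 ± 0.28 (SE), adjusted p = 0.0365, limma) and Nos2 fell (log2 fold change -1.10 ± 0.18 (SE), adjusted p = 0.0465, limma). They were the only 2 of these 31 genes called, where 0.25% of all tested genes rose and 0.242% fell. Unadjusted p-values under 0.05 were found for 6 of the 31, against 15.2% of all tested genes. Catalase (Cat), which breaks down hydrogen peroxide, fell under LPS (log2 fold change -0.75 ± 0.20 (SE), adjusted p = 0.0198) and had means of 30.1 ± 8.02 in control, 17.2 ± 2.08 in LPS and 37.1 ± 3.20 in LPS + G-CDs. Its difference between LPS + G-CDs and LPS was 1.07 ± 0.20 (SE), with adjusted p = 0.071 in limma, and it was named after its values were seen. LPS with G-CDs against control gave 5 higher and 8 lower of the 31, where 12.8% of all tested genes rose and 12.4% fell, led by Nos2 (log2 fold change 4.63 ± 0.18 (SE), adjusted p = 3.15e-07), Hao1 (2.11 ± 0.14, adjusted p = 1.03e-05) and Prdx1 (2.10 ± 0.28, adjusted p = 0.000691) in limma.

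Mitochondrial fatty acid oxidation shares carnitine shuttling with the peroxisome. Of 17 tested genes of 20 listed, 7 fell, 1 rose and the others were not called under LPS, against 15.6% of all tested genes that fell and 15.8% that rose, with a median of -0.40. Cpt1a, the gatekeeper of mitochondrial uptake, went from 6.06 ± 1.29 to 1.11 ± 0.227 FPKM (log2 fold change -1.73 ± 0.20 (SE), adjusted p = 0.000261), Hadh fell (log2 fold change -1.21 ± 0.11 (SE), adjusted p = 4.92e-05) and Acads fell (log2 fold change -1.13 ± 0.20 (SE), adjusted p = 0.00249). The 1 rise, named because it stood alone, was in Acadsb, a dehydrogenase of branched short chains (log2 fold change 0.80 ± 0.15 (SE), adjusted p = 0.00322). None of the 17 was called when G-CDs were added to LPS in limma, where 4 had an unadjusted p under 0.05 (15.2% of all tested genes did) and the median was 0.30. Against control, where 12.4% of all tested genes fell and 12.8% rose, LPS with G-CDs lowered 6 of the 17, led by Cpt1a (log2 fold change -1.39 ± 0.20 (SE), adjusted p = 0.00111), Hadh (-1.01 ± 0.11, adjusted p = 0.00018) and Acads (-0.77 ± 0.20, adjusted p = 0.0197), and raised 1, Acadvl.

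Among regulators of lipid oxidation, Ppara, Pparg and Ppargc1a were listed at 0 in every library. Decr1 and Gstk1, metabolic enzymes with wide expression, were listed at 0 as well, so that a 0 in these values need not mean that a gene was not expressed. Of 6 tested genes of 10 listed, 1 rose and 1 fell under LPS, near the shares of all tested genes (15.8% and 15.6%), and both are named because they were single. Ppard, a PPAR receptor, rose under LPS from 6.57 ± 0.319 to 10.3 ± 0.666 FPKM (log2 fold change 0.58 ± 0.11 (SE), adjusted p = 0.00466). Its coactivator Ppargc1b fell from 6.76 ± 1.48 to 2.80 ± 0.617 FPKM (log2 fold change -1.02 ± 0.19 (SE), adjusted p = 0.00388). None of the 6 was called between LPS + G-CDs and LPS in limma, where 2 had an unadjusted p under 0.05, as did 15.2% of all tested genes. Against control, LPS with G-CDs raised Ppard (log2 fold change 0.53 ± 0.11 (SE), adjusted p = 0.00888) and lowered Ppargc1b (log2 fold change -1.03 ± 0.19 (SE), adjusted p = 0.00457).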

How the data were processed

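RNA-seq libraries were sequenced on an Illumina instrument, and the authors deposited FPKM values for each gene and library with gene coordinates and gene lengths. Genome builds named in the submitters' processing notes were GRCm38 and mm10, and the aligner, counter and strand setting are not given in the sources used here. All 9 value columns were mapped to samples by name, and 0 columns belonged to other samples. Coordinates of 43 of 44 members equaled GENCODE mouse release M21 (the exception was Decr2). FPKM multiplied by gene length and by a library size found from the lowest values of each library gave whole reads, within 0.05 reads, in 100% of the values checked (those above 0 and under 1000 reads), and these reads served for depth and for voom. Precision was limited by 3 libraries per group.

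Testing was limited to genes that reached an FPKM of 1 in 3 or more libraries. Their log2(FPKM + 1) values entered 1 limma model for all 3 groups (version 3.58.1, R 4.3.3, eBayes with trend, two-sided), with Benjamini-Hochberg adjustment over all 11585 genes. The fit was tested on simulated data with the same dispersion and depth in every group. That test does not cover groups that differ in spread, as these do. Python 3.11.15, pandas 2.3.3 and matplotlib 3.10.9 were used for sequences and plots. Shared sequence was measured as the share of 50-base words of the longest transcript found in transcripts of other genes.

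The members, the pathway lists (other peroxisome genes, mitochondrial fatty acid oxidation, PPAR regulators) and the reference lists (Nrf2 targets, LPS response, macrophage and other cell type markers) were chosen with earlier results of these data known. Every member was described by its group means or library values. Library values were given for called members with 1 of the 6 strongest changes per direction and comparison, for the 4 largest rises and falls in LPS + G-CDs against LPS, and for members singled out as such. Of the pathway lists, called genes among the 3 largest changes on the log2(FPKM + 1) scale in each comparison were named. Alternatives were a pseudocount of 0.1, no filter, a mean FPKM of 5 or higher, TPM, median-of-ratios scaling, the 6 libraries of a comparison alone, no trend, voom, a replicate block, removal of the gene-length trend and each library left out in turn. Rescaling to the reads on genes was added after seeing the data.

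Replicate numbers recur in all groups, and their meaning is not given in the sources used here. After subtraction of group means, the correlation of control with LPS libraries of equal number was 0.103, 0.137 and 0.113, slightly above a limit of 0.1. Libraries of unequal number were not correlated for reference, so these values do not settle whether the numbers pair the groups. The correlations were 0.095, 0.0801 and 0.143 between LPS and LPS + G-CDs, and 0.28, 0.0575 and 0.653 between control and LPS + G-CDs.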

Additional observations from a re-analysis of the deposited data

How the results depend on the processing

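The members' median and the members in the text chosen by size of change kept their sign in every alternative tried, whereas others near 0 did not (Pex16 in 5 settings and Abcd3 in 2 for LPS against control), nor did the median of all tested genes under TPM. For LPS against control (2 members higher, 13 lower), 1 member was higher with no filter, with a mean FPKM of at least 5 or with the 6 libraries alone, 0 with TPM, and 4 with the replicate block or with the gene-length trend removed, and leaving out 1 library gave 1 to 3. The lower count was 7 with a mean FPKM of at least 5, which tests 25 members, 20 with TPM, and 8 to 13 with 1 library left out. For LPS + G-CDs against LPS, members past an unadjusted p of 0.01 and 1.5-fold (0) numbered 1 with a pseudocount of 0.1 (Mlycd), 1 with the replicate block (Eci2), 1 with the length trend removed (Abcd4) and 0 to 3 with 1 library left out, the 3 arising without LPS + G-CDs replicate 1. For LPS + G-CDs against control (3 higher, 7 lower), 1 was higher with no filter or a mean FPKM of at least 5, 0 with TPM or the 6 libraries alone, 5 with voom, the replicate block or the length trend removed, and 0 to 4 with 1 library left out. The lower count was 3 with a mean FPKM of at least 5, 15 with TPM and 4 with the 6 libraries alone. Members' medians under TPM were -0.543, 0.0015 and -0.501 in these 3 comparisons, where all genes had -0.23, -0.14 and -0.38. Rescaling to the reads on genes, chosen after seeing the data, gave 1 higher and 19 lower, 0 and 0, and 0 and 12, with medians of -0.473, 0.129 and -0.31. For the called members chosen by size of change 279 alternative values kept the call and 51 lost it, and 157 values of uncalled ones stayed uncalled. The cause was not tested. The fewest reads of a tested member in any library were 37, for Pxmp4, so that counting error is largest for such low members.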
